A study of Mus musculus with 18 samples.

Results

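The comparison described here set germinal centre B cells that could take up a T cell antigen and came from hosts given rapamycin against cells that could not take it up and came from other hosts, without rapamycin, 24 h after the antigen was delivered. It held 8 of the 18 libraries of the study, 4 in each group, chosen by their labels and by no measured value. All cells were B1-8hi, with a knocked-in heavy chain directed at the hapten NP, and went into C57BL/6 hosts that had been primed with ovalbumin in alum 2 weeks earlier. The transferred mixture held 15% DECP cells, which are Ly75+/+ and CD45.1, and 85% DECN cells, which are Ly75-/- and CD45.1/2. After NP-ovalbumin had been injected into the footpads, ovalbumin coupled to anti-DEC205 followed on day 6. Light zone cells (B220+ CD38- CD95+ CD83hi CXCR4lo) were then sorted from the popliteal lymph node by the CD45 marker of each donor. For the group called rapamycin-treated DECP below, the host received rapamycin at 2.5 mg/kg together with the antibody. The DECN group had the antibody and no rapamycin, and no group of DECN cells with rapamycin was analysed here. DEC205, the donor strain and the drug therefore differ together between both groups, and their parts cannot be told apart. A further group at 24 h, 4 libraries of DECP cells without rapamycin, is given beside the values as untreated DECP.

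Ly75 encodes DEC205, an endocytic receptor that carries what it binds to compartments where peptides are loaded onto MHC class II. A germinal centre B cell that presents more peptide receives more help from follicular T cells in the light zone, and this help induces MYC and prepares the cell to grow and divide. mTORC1 is a kinase complex that promotes growth by raising protein synthesis, lipid synthesis and mitochondrial function, and rapamycin inhibits it. Among its best known outputs is the translation of mRNAs that begin with a tract of pyrimidines, which encode ribosomal proteins and elongation factors. The comparison asks how DECP cells from hosts given rapamycin differed from DECN cells from hosts without it. Neither the help received nor the activity of mTORC1 was measured here.

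Ly75 was measured first, since it checks the labels. Its level was 4.91, 5.72, 6.66 and 2.76 TPM (a share of the transcripts in a library, corrected for their length) in the 4 DECN libraries and 9.69, 19.0, 8.66 and 13.2 TPM in the 4 libraries of rapamycin-treated DECP. The groups did not overlap, and the level was 2.52-fold higher in rapamycin-treated DECP (exact permutation test, two-sided, p = 0.0286, the smallest that 4 libraries against 4 allow). In the fit across all genes its log2 difference was 1.17 with a limma adjusted p of 0.0998. The knockout libraries were thus not at 0, and which exons the deletion removes was not looked up here. B cell markers were abundant in all 8 libraries, with a summed level of 4838 to 5646 TPM in DECN and 4125 to 4693 TPM in rapamycin-treated DECP over 10 genes. Of 20 T cell markers, Cd3e, Cd3g and Trac did not exceed 2.12 TPM in any of them, while Lck was at 114 to 167 TPM and Cd2 at 34.6 to 84.2 TPM. The list summed to 218 to 309 TPM in DECN and 202 to 262 TPM in rapamycin-treated DECP. Of the 8 libraries, DECN replicate 4 stood apart with 44.7 TPM of Trbc2 and 15.9 TPM of Cd8b1. The summed level of 23 macrophage and dendritic cell markers was 1069 to 1167 TPM in DECN and 655 to 1209 TPM in rapamycin-treated DECP. Nearly all of that was Apoe, and without it the ranges were 35.9 to 68.9 and 30.5 to 57.9 TPM. Markers of stromal cells summed to at most 113 TPM, of erythroid cells to at most 101 TPM, and of neutrophils and NK cells to at most 11.5 TPM. The largest part of the stromal sum was Cr2 (36.4 to 81.8 TPM), which is also on the list of naive and memory B cell genes. Hbb-bt (14.5 to 91.4 TPM) was the largest part of the erythroid sum. The Y-linked gene Ddx3y was at 19.1 and 11.7 TPM in DECN replicates 1 and 2 and at or below 0.726 TPM in the other DECN and rapamycin-treated DECP libraries. With both of these libraries left out, 30 genes passed the threshold, 21 of them among the 167 called below. All 167 kept their direction, which is fixed in advance for genes whose groups do not overlap. Between 11562 and 12244 genes reached 1 TPM in a library, and the read depth of a library is unknown. The protocol calls replicates biological but names no animal, and p-values cover the variation among these libraries, whatever its source.

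Of 12783 genes tested, 167 passed the threshold (limma on log2(TPM + 1), Benjamini-Hochberg adjusted p under 0.05), which is 1.31% of those tested. Of these, 99 (0.774%) were higher in rapamycin-treated DECP and 68 (0.532%) were lower. By annotation 147 of the 167 were protein coding and 13 were processed pseudogenes. Entries named as pseudogenes of ribosomal proteins, such as Rpl14-ps1, Rpsa-ps10 and Rps27a-ps2, were counted among the 99 as separate calls. The 4 libraries of each group did not overlap for 165 of the 167 genes. Selection by a small p favours such genes, and the share without overlap over all tested genes is not given here. At least a 2-fold difference on this scale, which understates the change of low genes, was seen for 34 of the higher and 32 of the lower genes. The median over all tested genes was 0.02 on the log2 scale. The number called depended strongly on single libraries. It was 53, 89, 74 and 32 without DECN replicates 1, 2, 3 and 4, and 23, 82, 118 and 34 without rapamycin-treated DECP replicates 1, 2, 3 and 4. All 167 kept their direction in each of those fits, as the 165 without overlap must. Of the called genes 59.3% were higher, against 47.6% of 103 with quantile scaling, 38.7% of 106 with median centring and 72.4% of 127 when ribosomal protein genes were left out of the scaling. Each group had libraries with both kinds of second sequencing index. In DECN the kind starting with A belonged to replicates 1 and 2, the same libraries that held Ddx3y, so the index and Ddx3y coincide in that group. All 167 genes had the same direction within either kind of index. The 165 without overlap must have it, so this is no test of an index effect. Within 1 kind alone, 2 libraries against 2, limma called 0 and 1 genes, with 1058 and 1238 at an unadjusted p under 0.05. For called genes the text below therefore gives in how many of 12 fits, each without 1 library at 24 h, the call held. In all 12 fits, 19 genes were called. Of the 12 fits, 4 leave out an untreated DECP library, which keeps both compared groups whole and changes only the shared estimate of spread. In these 4 the number called was 173, 120, 110 and 107. Up to 4 of the 12 can thus be kept with no compared library left out. In the same table untreated DECP differed from DECN in 517 genes (4.04%) and from rapamycin-treated DECP in 279 genes (2.18%). These comparisons share libraries, so their values are set side by side and no overlap is drawn from them.

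**Figure D1:**
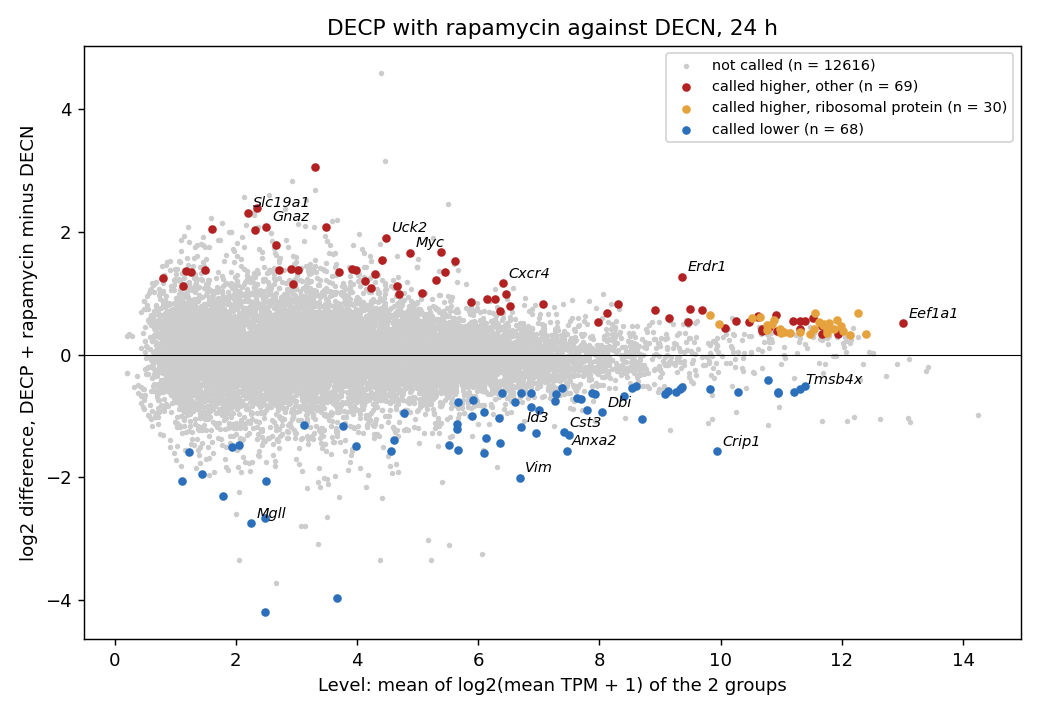
Difference between the groups against level for each of the 12783 tested genes. The horizontal axis is the level in log2(TPM + 1) and the vertical axis the log2 difference, rapamycin-treated DECP minus DECN. Colours mark the 99 genes called higher, 30 of them on the list of ribosomal protein genes, and the 68 called lower. Entries named as pseudogenes of ribosomal proteins are among the other genes called higher. The ribosomal protein genes lie at the high end of the level axis with small differences, while the rises of Slc19a1 and Uck2 and the falls of Mgll and Vim are large.

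Slc19a1 and Uck2 were among the 10 largest rises. Slc19a1, the reduced folate carrier, was at 1.98, 0.802, 1.58 and 0.124 TPM in DECN and at 9.08, 9.26, 7.36 and 9.89 TPM in rapamycin-treated DECP. Every treated library was above every DECN library, and the mean was 7.93-fold higher (log2 difference 2.31 ± 0.38 SE, limma adjusted p = 0.0143). Untreated DECP stood at 8.50 ± 4.39 TPM (SD, n = 4). The call was lost without rapamycin-treated DECP replicate 1 or 4, with adjusted p of at most 0.0560. Uck2, which phosphorylates uridine and cytidine in the salvage of pyrimidines, was at 23.1, 9.85, 8.86 and 3.71 TPM in DECN and at 39.6, 51.8, 30 and 34.8 TPM in rapamycin-treated DECP. DECN replicate 1 was the highest of its group and still below every treated library. The log2 difference was 1.90 ± 0.39 (limma adjusted p = 0.0392), and the gene was called in 3 of the 12 left-out fits. Tyms and Dtymk, which act in thymidine nucleotide synthesis, rose by less than 2-fold. Tyms, thymidylate synthase, rose from 100.4 ± 21.2 to 178 ± 29.97 TPM (SD, n = 4 each; log2 difference 0.83, limma adjusted p = 0.0398) and was called in 3 of 12. Dtymk, which makes thymidine diphosphate, rose from 373 ± 61.8 to 622 ± 112 TPM (limma adjusted p = 0.0479) and was called in 2 of 12. It belongs to no list and was picked out after its values were seen.

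In the list of 27 genes of nucleotide and polyamine synthesis, Uck2 and Tyms rose (7.41%, beside 0.774% of all genes called higher) and none fell. Of the 27, 24 were higher in any amount, and the median log2 difference was 0.30. The purine enzymes Paics, Pfas and Gart were higher by 0.59, 0.62 and 0.74 without passing the threshold (limma adjusted p = 0.0570, 0.0869 and 0.124). In polyamine synthesis Srm, spermidine synthase, was at 51.4 ± 19.98 TPM in DECN, 92.6 ± 11.4 in rapamycin-treated DECP and 179 ± 61.4 in untreated DECP, a log2 difference of 0.92 with an adjusted p of 0.169. Odc1, ornithine decarboxylase, was at 111 ± 20.9, 157 ± 19.4 and 255 ± 62.1 TPM in the same order, and its log2 difference of 0.50 had a limma adjusted p of 0.240. Untreated DECP against DECN called 13 of the 27 genes higher, with a median of 0.83, beside 348 of all 12783 tested genes called higher there.

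Myc, the transcription factor that marks light zone cells selected by T cell help, rose from 15.4 ± 7.30 to 51.3 ± 21.8 TPM. The DECN libraries held 7.59, 14.5, 14.4 and 25.3 TPM and those of rapamycin-treated DECP 69.9, 67.8, 23.9 and 43.6 TPM. Treated replicate 3 lay below DECN replicate 4, so the groups overlapped. The log2 difference was 1.66 ± 0.36 (limma adjusted p = 0.0452), and the gene was called in 1 of the 12 left-out fits, with an adjusted p of up to 0.139. In untreated DECP Myc was at 34.5 ± 4.75 TPM, which differed from DECN by 1.21 with an adjusted p of 0.0885. Of 60 genes of ribosome biogenesis, 1 rose (1.67%, beside 0.774% of all genes called higher) and none fell. In any amount 51 were higher, and the median log2 difference was 0.25. The gene that rose was Npm1, the nucleolar chaperone nucleophosmin. It went from 1265 ± 75.5 to 1936 ± 205 TPM (log2 difference 0.61, limma adjusted p = 0.0474, called in 2 of 12), and untreated DECP had 2734 ± 658 TPM. Gnl3, nucleostemin, was higher by 1.06 with an adjusted p of 0.0838. Untreated DECP against DECN called 18 of the 60 genes higher with a median of 0.69, beside 348 of all 12783 tested genes. Rapamycin-treated against untreated DECP called 4 of the 60 lower with a median of -0.47, beside 195 of all 12783.

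Receptors, kinases and signalling genes were also among the rises. Cxcr4, the chemokine receptor that draws cells to the dark zone and whose protein was low by the sort, was at 36.8, 47.2, 77.1 and 61.1 TPM in DECN and at 128, 99.2, 180 and 95.0 TPM in rapamycin-treated DECP. The groups did not overlap, and the log2 difference was 1.17 ± 0.25 (limma adjusted p = 0.0452, called in 2 of 12). Pim1, a serine/threonine kinase induced by cytokine signals, rose from 55.5 ± 6.45 to 106 ± 21.2 TPM (log2 difference 0.91, limma adjusted p = 0.0252, called in 7 of 12). Every treated library lay at or above 83.9 TPM and every DECN library at or below 60.5 TPM. Gnaz, a G protein alpha subunit, rose from 1.78 ± 0.971 to 10.6 ± 3.37 TPM (log2 difference 2.09 ± 0.31, limma adjusted p = 0.0111) and was called in all 12 left-out fits. Dusp4, a phosphatase of MAP kinases, rose from 0.497 ± 0.325 to 2.83 ± 1.07 TPM (limma adjusted p = 0.0479, called in 1 of 12), and untreated DECP had 0.673 ± 0.437 TPM. Oasl1, an interferon-induced gene, rose from 10.6 ± 1.89 to 25.5 ± 2.76 TPM (limma adjusted p = 0.0184, called in 8 of 12). Cd3d, a chain of the T cell receptor complex, rose from 16.1 ± 2.29 to 36.5 ± 7.74 TPM (limma adjusted p = 0.0281, called in 5 of 12) while its partner Cd3e was at or below 2.12 TPM in all 8 libraries.

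Other called genes had different roles. Adgrl3, an adhesion G protein-coupled receptor, rose from 22.7 ± 8.35 to 72.6 ± 15.4 TPM (log2 difference 1.68, limma adjusted p = 0.0184, called in 9 of 12). Tenm1, a teneurin of the cell surface, rose from 8.75 ± 1.23 to 24.6 ± 3.63 TPM (log2 difference 1.39, limma adjusted p = 0.0120, called in 10 of 12). In untreated DECP Adgrl3 was at 84.4 ± 32.2 TPM and Tenm1 at 27.9 ± 5.88 TPM. Sntg2, a syntrophin, rose from 0.444 ± 0.302 to 5.41 ± 2.83 TPM (limma adjusted p = 0.0281) and Mtfp1, a factor of mitochondrial fission, from 2.48 ± 1.07 to 10.7 ± 2.26 TPM (limma adjusted p = 0.0331), each called in 5 of 12. Ankzf1, a factor of ribosome quality control, was at 4.94 ± 4.23, 20.3 ± 4.01 and 8.73 ± 2.09 TPM in DECN, rapamycin-treated and untreated DECP (log2 difference from DECN 2.07, limma adjusted p = 0.0299, called in 5 of 12). Lmo7, an actin-binding LIM protein, was at 1.65 ± 1.80, 8.43 ± 2.78 and 2.94 ± 1.14 TPM (limma adjusted p = 0.0442, called in 1 of 12). Ccnj, a cyclin, was at 3.71 ± 1.57, 11.0 ± 2.70 and 6.21 ± 1.46 TPM (limma adjusted p = 0.0479, called in 1 of 12). Erdr1, a gene of the pseudoautosomal region, rose from 424 ± 51.5 to 1023 ± 130 TPM (log2 difference 1.27, limma adjusted p = 0.00224, called in all 12), and untreated DECP had 851 ± 155 TPM. Me3, the mitochondrial malic enzyme, rose from 24.9 ± 3.93 to 59.4 ± 12.3 TPM (limma adjusted p = 0.0120, called in all 12), with 68.2 ± 10.01 TPM in untreated DECP. Me3 and Timeless were picked out after their values were seen. Timeless, a component of the replication fork, was at 237 ± 40.8 TPM in DECN, 421 ± 60.1 in rapamycin-treated DECP and 202 ± 19.2 in untreated DECP. It rose against DECN by 0.83 (limma adjusted p = 0.0184, called in 9 of 12) and against untreated DECP by 1.05 (limma adjusted p = 0.00391).

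**Figure D2:**
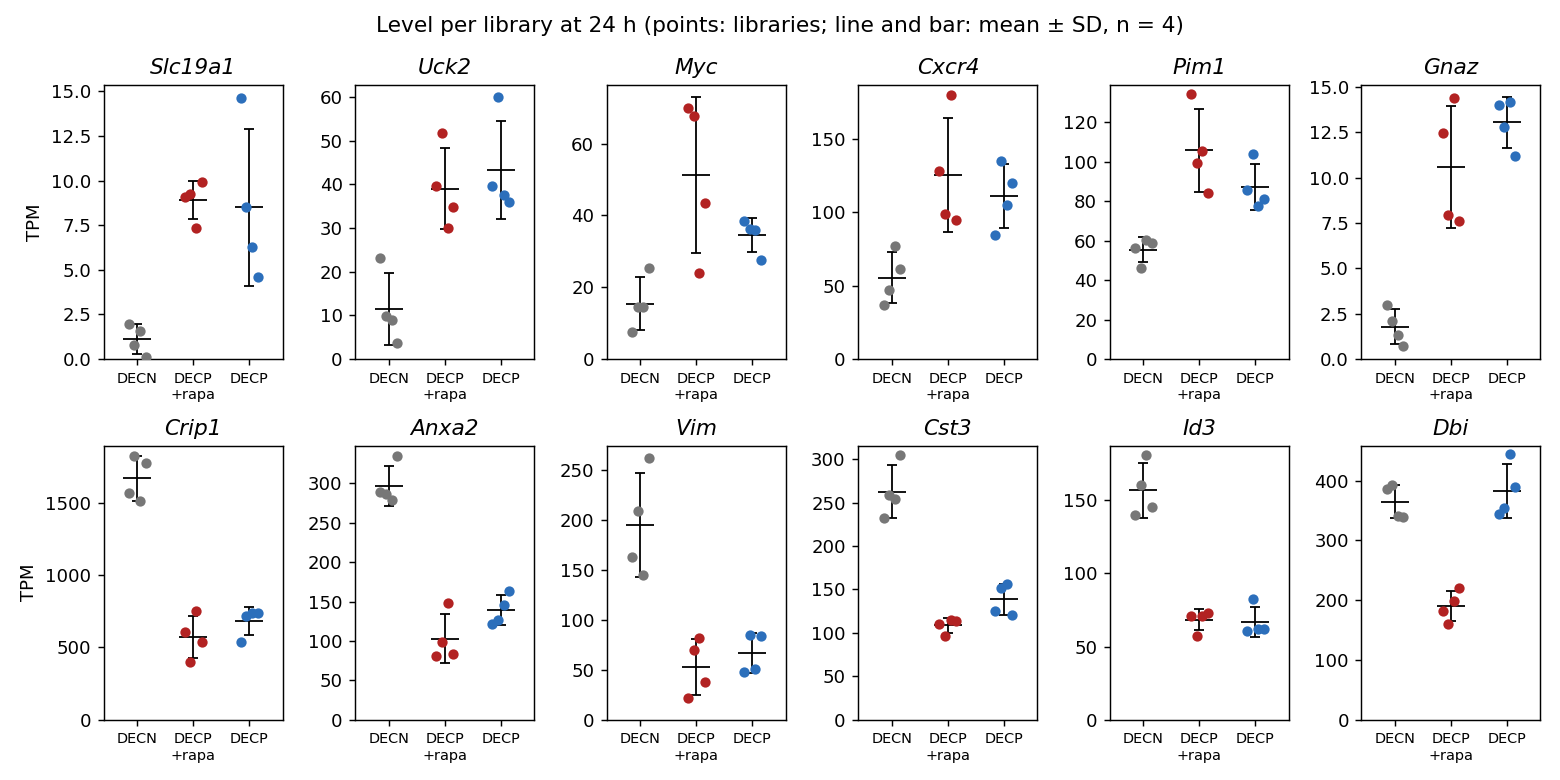
Level in TPM in each library at 24 h for 6 genes that rose and 6 that fell in rapamycin-treated DECP against DECN; points are libraries, and the line and bar give the mean ± SD of 4. The DECN and rapamycin-treated libraries do not overlap for any of these genes but Myc, and for Dbi untreated DECP (383 ± 45.2 TPM) lies near DECN (365 ± 28.2 TPM) and not near rapamycin-treated DECP (190 ± 25.6 TPM).

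The group with the most calls was the cytosolic ribosomal proteins, the protein subunits of the ribosome. Of 75 tested, 30 rose and none fell, 74 were higher in any amount, and the median log2 difference was 0.35, a share of 40.0% called against 1.31% of all genes. Rps18 was at 3945, 4308, 3607 and 3682 TPM in DECN and at 6321, 5797, 6314 and 6389 TPM in rapamycin-treated DECP. The lowest treated library was well above the highest DECN library, with a log2 difference of 0.68 ± 0.08 (limma adjusted p = 0.00229). Rpl32 rose from 3211 ± 173 to 4723 ± 286 TPM (log2 difference 0.56, limma adjusted p = 0.0111) and Rpl4 from 2809 ± 173 to 3923 ± 149 TPM (log2 difference 0.48, limma adjusted p = 0.0111). Those 3 genes were called in all 12 left-out fits, whereas the number of ribosomal protein genes called was 6, 22, 6 and 5 without DECN replicates 1 to 4 and 3, 13, 11 and 5 without rapamycin-treated DECP replicates 1 to 4. The smallest differences were those of Fau (-0.05), Rps29 (0.04) and Rpl27 (0.05), and the largest those of Rps18 and Rps2 (0.68 each). Summed over the family, ribosomal proteins held 168518, 192780, 171137 and 182425 TPM in DECN and 233407, 217042, 228005 and 236170 TPM in rapamycin-treated DECP, with no overlap. Untreated DECP held 171272 to 205652 TPM.

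In the same family, untreated DECP against DECN called 4 of the 75 genes higher and 1 lower, with a median of 0.10. Over all 12783 genes that comparison called 348 higher and 169 lower (4.04% together). Rapamycin-treated against untreated DECP called 16 of the family higher and none lower, with a median of 0.29. It called 84 of all genes higher and 195 lower (2.18% together). At 12 h without rapamycin, 247 genes were called higher in DECP than in DECN, where 2.89% of all genes were called in either direction. Ribosomal protein genes made up 39 of the 243 that were tested at 24 h. Rps6, the ribosomal protein phosphorylated downstream of mTORC1, was at 3440 ± 228 TPM in DECN, 4735 ± 298 in rapamycin-treated DECP and 3512 ± 341 in untreated DECP. Reads of these genes are shared with many processed pseudogenes, and the estimate that divides them makes the value of each member uncertain. None was called lower under any scaling tried, and the number called higher depended on it: it was 5 with quantile scaling and 7 with median centring, with medians of 0.21 and 0.32. The number that limma called higher was 6 with no filter on low values, 3 with the replicate block, 2 without DECN replicates 1 and 2, and 0 without the intensity trend, with a required 1.2-fold change or within either kind of second index. The median in these settings lay between 0.35 and 0.38.

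Genes that are known to carry the same pyrimidine tract but encode other proteins were picked out after their values were seen. No list of such genes was drawn up, and those that did not rise are not counted here. The windows of the genes named in this paragraph were not read for the tract. Eef1a1, the elongation factor that brings tRNAs to the ribosome, was at 6804, 7273, 6186 and 7348 TPM in DECN and at 9879, 9183, 10324 and 9954 TPM in rapamycin-treated DECP. It rose by 0.51 ± 0.07 (limma adjusted p = 0.0111, called in all 12 left-out fits), and untreated DECP had 7675 ± 654 TPM. Its exchange factor subunits Eef1b2 and Eef1g rose by 0.54 and 0.73 (limma adjusted p = 0.0136 and 0.0278, called in 10 and 7 of 12). Pabpc1, the poly(A)-binding protein, rose by 0.60 (limma adjusted p = 0.0310, called in 5 of 12). Rack1, a protein of the small ribosomal subunit, rose by 0.60 (limma adjusted p = 0.0220, called in 6 of 12), Hnrnpa1 by 0.54 (limma adjusted p = 0.0158, called in 9 of 12) and Tpt1 by 0.33 (limma adjusted p = 0.0439, called in 2 of 12). These genes too have processed pseudogenes. In the whole list of 41 translation factors and tRNA synthetases the 3 Eef1 genes rose (7.32%, beside 0.774% of all genes called higher). None fell, and the median was 0.08. In any amount 26 of the 41 were higher and 15 lower, and by limma at an unadjusted p under 0.05, 8 were higher and 2 lower.

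The start of the transcript was read from the RefSeq promoter windows (GRCm38.p6, 250 bases before to 50 after the annotated start) for ribosomal protein genes called higher, since the tract lies there. A tract was counted where a C followed by at least 5 pyrimidines began within 5 bases of the annotated start on the sense strand. A stretch inside a longer run of pyrimidines counted too. It was found for 9 of the 22 ribosomal protein genes called higher that have a window (40.9%), for 16 of the 32 tested and not called (50%), and for 11.9% of all 27025 genes with a window. The 4 called genes with the smallest p among those with a tract follow, each as the 30 bases from 10 before to 20 after the annotated start. The counted tract is in capitals. In Rpl34 the bases before the capitals are pyrimidines too, so its run begins further upstream than marked. Rps18 lies at chr17:33955646-33955675, Rpl34 at chr3:130730318-130730347 (an alternative annotated start), Rps6 at chr4:86857348-86857377, all 3 on the minus strand, and Rpl35a at chr16:33056472-33056501 on the plus strand.
Rps18: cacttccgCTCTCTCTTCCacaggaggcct
Rpl34: cttttCCTCTTCCggggacggtgctcagag
Rps6: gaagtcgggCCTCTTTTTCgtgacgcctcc
Rpl35a: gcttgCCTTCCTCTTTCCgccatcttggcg

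**Figure D3:**
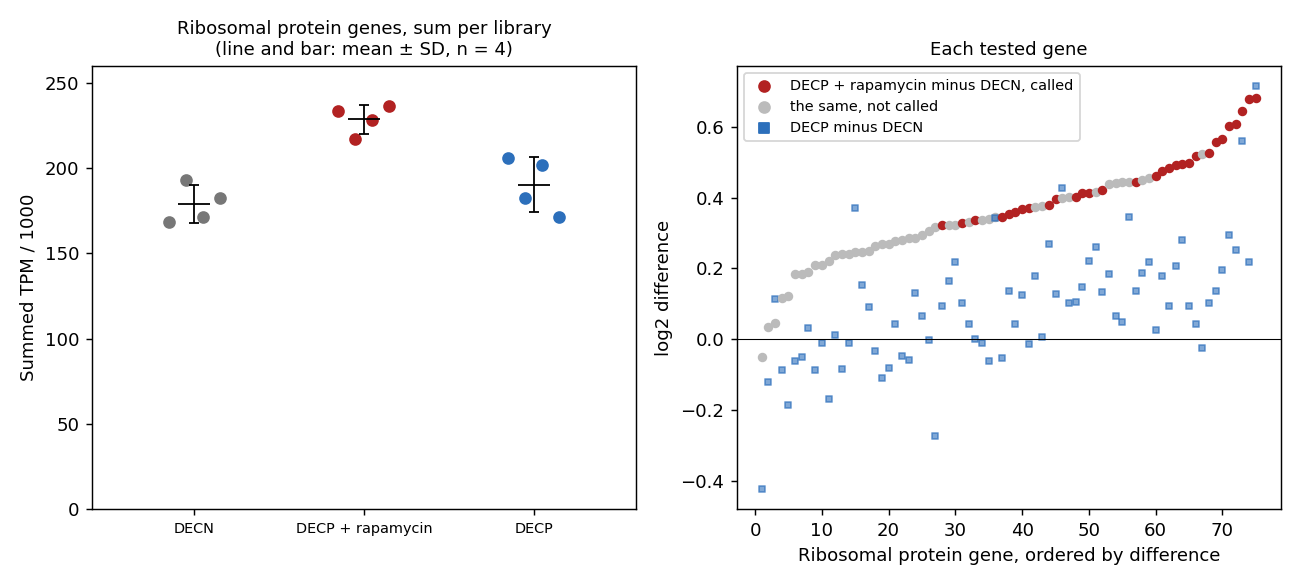
Left, the summed level of the ribosomal protein genes in each library, in TPM divided by 1000, with mean ± SD of 4. Right, the log2 difference of each of the 75 tested genes, ordered by size, for rapamycin-treated DECP minus DECN (circles, coloured where called) and untreated DECP minus DECN (squares). The 4 treated libraries lie from 217042 to 236170 TPM, above all other 24 h libraries, and 30 of the 75 genes are called.

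Crip1, Anxa2, Vim and Gsn were among the 10 largest falls, and those other than Crip1 encode proteins that form the cytoskeleton or bind actin. No list of cytoskeletal genes was drawn up, and those that did not fall are not counted here. Crip1, a small LIM protein, was at 1565, 1824, 1510 and 1778 TPM in DECN and at 609, 399.9, 749.9 and 536 TPM in rapamycin-treated DECP. It fell by 1.57 ± 0.17 on the log2 scale (limma adjusted p = 0.00215), and untreated DECP had 683 ± 96.0 TPM. Anxa2, annexin A2, which binds membranes and actin, fell from 297 ± 25.5 to 103 ± 31.2 TPM (log2 difference -1.56, limma adjusted p = 0.00229). Crip1 and Anxa2 were called in all 12 left-out fits. Vim, the intermediate filament protein vimentin, was at 163, 209, 145 and 263 TPM in DECN and at 21.7, 69.9, 81.8 and 37.4 TPM in rapamycin-treated DECP. Its log2 difference was -2.01 ± 0.37 (limma adjusted p = 0.0242, called in 7 of 12). Gsn, the actin-severing protein gelsolin, fell from 119 ± 36.1 to 37.6 ± 9.26 TPM (limma adjusted p = 0.0278, called in 7 of 12). The other genes in this paragraph were picked out after their values were seen. The actin-nucleating Arp2/3 subunits Arpc3, Arpc4 and Arpc5l fell by 0.64, 0.74 and 0.57, and the calls held in 4, 1 and 9 of 12 left-out fits (limma adjusted p = 0.0418, 0.0452 and 0.0182). Tmsb4x, which binds free actin, fell from 3067 ± 388 to 2085 ± 313 TPM (limma adjusted p = 0.0487, called in 1 of 12). Coro1a, an actin-binding coronin, fell by 0.41 (limma adjusted p = 0.0452, called in 2 of 12), and the myosin light chain Myl6 fell by 0.57 (limma adjusted p = 0.0214, called in 8 of 12). The galectin Lgals1 fell from 74.1 ± 10.1 to 27.1 ± 9.24 TPM (limma adjusted p = 0.0136, called in 10 of 12). In bulk libraries fewer cells of a type and less RNA per cell cannot be told apart.

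Another group of falls held genes that characterise the germinal centre B cell. Of 27 genes on that list, 4 fell (14.8%, beside 0.532% of all genes called lower) and none rose, and the median was -0.19. Id3, an inhibitor of E proteins, fell from 157 ± 18.5 to 68.2 ± 7.19 TPM (log2 difference -1.19, limma adjusted p = 0.00400), and untreated DECP had 66.9 ± 10.4 TPM. Id3 was called in all 12 left-out fits. Nuggc, a nuclear GTPase of the germinal centre, fell from 109 ± 25.1 to 43.2 ± 17.6 TPM (limma adjusted p = 0.0354, called in 4 of 12). Basp1 fell from 65.0 ± 4.04 to 37.9 ± 3.68 TPM (limma adjusted p = 0.0402, called in 2 of 12). Of 10 markers that define B cells 1 fell, 8 were lower in any amount, and the median was -0.35; the part of this in the falls of the list was not tested. The transcription factors that define the programme did not pass the threshold. Bcl6 was at 16.9 ± 3.46 and 15.5 ± 6.55 TPM in DECN and rapamycin-treated DECP (log2 difference -0.18), Bach2 at 73.6 ± 4.72 and 66.2 ± 25.6 TPM (-0.22) and Foxo1 at 7.99 ± 0.737 and 7.09 ± 2.30 TPM (-0.19).

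In the B cell receptor list, 2 of 26 genes fell (7.69%, beside 0.532% of all genes called lower) and none rose. In any amount 22 were lower, and the median was -0.29. The 2 that fell are inhibitors of receptor signalling. Ptpn6, the phosphatase SHP-1, fell from 672 ± 43.7 to 434 ± 58.8 TPM (log2 difference -0.63, limma adjusted p = 0.0184, called in 9 of 12), and untreated DECP had 410 ± 37.0 TPM. Dok3, an inhibitory adaptor, fell from 72.5 ± 7.01 to 33.4 ± 9.82 TPM (limma adjusted p = 0.0487, called in 3 of 12). Of 24 apoptosis regulators 1 (4.17%) fell and none rose, with a median of -0.20. This was Bmf, a protein of the BCL2 family that promotes death. It fell from 5.95 ± 1.59 to 1.49 ± 0.493 TPM (log2 difference -1.47, limma adjusted p = 0.0252, called in 5 of 12). Untreated DECP had 0.784 ± 0.234 TPM of Bmf. In the lysosome and autophagy list 2 of 37 genes (5.41%) fell and none rose, with a median of -0.11. These were Acp5, an acid phosphatase (74.2 ± 15.2 to 32.4 ± 12.1 TPM, limma adjusted p = 0.0352, called in 4 of 12), and Gabarapl2, a protein of autophagosomes (200.1 ± 20.5 to 136 ± 8.85 TPM, limma adjusted p = 0.0487, called in 1 of 12).

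Further falls were large in genes with other roles. Cst3, the protease inhibitor cystatin C, was at 233, 258, 255 and 305 TPM in DECN and at 110.0, 96.0, 115 and 114 TPM in rapamycin-treated DECP (log2 difference -1.26 ± 0.13, limma adjusted p = 0.00215, called in all 12). Mgll, which releases fatty acids from monoacylglycerols, fell from 11.7 ± 7.03 to 0.774 ± 0.647 TPM (log2 difference -2.75, limma adjusted p = 0.0286, called in 6 of 12). Igf2bp3, an RNA-binding protein, fell from 10.4 ± 4.56 to 1.77 ± 1.22 TPM (limma adjusted p = 0.0219, called in 8 of 12), and Msrb2, a methionine sulfoxide reductase, fell from 12.1 ± 7.13 to 1.38 ± 2.10 TPM (limma adjusted p = 0.0372, called in 4 of 12). Acyp1, an acylphosphatase, fell from 40.2 ± 12.5 to 12.5 ± 1.90 TPM (limma adjusted p = 0.0184, called in 9 of 12). Cyp4f18, a cytochrome P450, fell from 84.3 ± 20.6 to 29.0 ± 10.3 TPM (limma adjusted p = 0.0439, called in 2 of 12). Ctbs, a lysosomal chitobiase, fell from 5.34 ± 1.61 to 1.30 ± 0.905 TPM (limma adjusted p = 0.0490, called in 1 of 12). Srgn, the proteoglycan serglycin, fell from 602 ± 88.4 to 289 ± 35.8 TPM (limma adjusted p = 0.0111, called in all 12) and was picked out after its values were seen, as was Dbi. Dbi, which binds acyl-CoA, was at 386, 392, 341 and 339.6 TPM in DECN, at 181, 161, 199 and 221 TPM in rapamycin-treated DECP and at 383 ± 45.2 TPM in untreated DECP. It fell against DECN by 0.94 (limma adjusted p = 0.00512, called in all 12) and against untreated DECP by 1.01 (limma adjusted p = 0.00244), while untreated DECP and DECN differed by 0.07 (limma adjusted p = 0.848).

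The lists of oxidative phosphorylation, the proteasome, and G2/M and mitosis had no call in rapamycin-treated DECP against DECN. There 1.31% of all genes were called, so counts of 0 in lists of this size are not below the background. Untreated DECP against DECN, where 4.04% of all genes were called, called 9 to 12 genes of each. Of 59 genes of oxidative phosphorylation, 43 were lower in any amount with a median of -0.13. Untreated DECP against DECN called 12 of the 59 higher with a median of 0.34. Treated against untreated DECP, where 2.18% of all genes were called, called 21 of the 59 lower. At an unadjusted p under 0.05, 9 of the 59 were lower and none higher, with Ndufa1 and Ndufs8 of complex I nearest the threshold (-0.50 and -0.59, limma adjusted p = 0.0786 and 0.0821). Of 37 proteasome genes the median was -0.11, untreated DECP called 12 higher than DECN with a median of 0.47, and treated against untreated DECP called 15 lower. Of 41 genes of G2/M and mitosis the median was 0.06, and untreated DECP called 9 higher with a median of 0.77. Of 21 cytosolic chaperones 1 rose, Hsp90ab1, the constitutive HSP90 (1182 ± 42.0 to 1707 ± 118 TPM, limma adjusted p = 0.0278, called in 4 of 12). The median of the chaperones was 0.18, and untreated DECP against DECN called 17 of the 21 higher with a median of 0.84. Of 55 mitochondrial ribosomal proteins none was called, and the median was -0.02, beside 3 called higher and a median of 0.46 for untreated DECP, where 4.04% of all genes were called. By limma at an unadjusted p under 0.05, 3 mitochondrial ribosomal protein genes were higher and 2 lower, 2 genes of G2/M were higher and 1 lower, and 1 proteasome gene was higher and 2 lower.

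MHC class II genes, which present peptide to T cells, were called lower in untreated DECP and not in rapamycin-treated DECP. H2-Eb1 was at 3119, 3394, 3163 and 3487 TPM in DECN and at 2923, 2837, 3171 and 3028 TPM in rapamycin-treated DECP. These libraries overlapped, with a log2 difference of -0.14 (limma adjusted p = 0.515). Untreated DECP had 2007 ± 228 TPM, lower than rapamycin-treated DECP by 0.58 on the log2 scale (limma adjusted p = 0.00423). None of the 14 genes on the list was called against DECN, where 1.31% of all genes were. By limma at an unadjusted p under 0.05, 1 was higher and 1 lower, and the median was -0.05. Untreated DECP called 8 of the 14 lower than DECN, where 4.04% of all genes were called, with a median of -0.65. In treated against untreated DECP 7 were higher, where 2.18% of all genes were called. This was not particular to MHC class II. Untreated DECP also called 5 of 10 B cell defining markers (median -0.71) and 8 of 26 B cell receptor genes (median -0.61) lower than DECN. In each of these 2 lists 3 genes were higher in treated than in untreated DECP. The light zone markers Cd83 and Cd86 were at 931 ± 80.1 and 184 ± 30.4 TPM in DECN and at 1036 ± 181 and 165 ± 63.0 TPM in rapamycin-treated DECP, with limma adjusted p of 0.729 and 0.772.

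Sterol and fatty acid synthesis had the lowest median of any list with 10 or more tested genes other than markers, at -0.49. Of its 32 genes 28 were lower in any amount and none was called, where 1.31% of all genes were. At an unadjusted p under 0.05, 8 were lower and none higher. Hmgcs1, which makes the precursor of sterols, was at 67.1 ± 13.0 TPM in DECN, 43.9 ± 14.7 in rapamycin-treated DECP and 84.3 ± 4.63 in untreated DECP (log2 difference from DECN -0.65, limma adjusted p = 0.248). Fasn, fatty acid synthase, was lower by 1.40 (limma adjusted p = 0.107). Treated against untreated DECP called 5 of the 32 genes lower, beside 195 of all 12783 tested genes called lower there. The amino acid transporter Slc7a5 was at 9.06 ± 1.96, 6.01 ± 0.615 and 15.8 ± 3.38 TPM in DECN, treated and untreated DECP; it did not pass against DECN (limma adjusted p = 0.407) and was lower than in untreated DECP by 1.24 (limma adjusted p = 0.0214). Hk2, a hexokinase, was at 17.3 ± 10.9, 31.7 ± 7.88 and 53.7 ± 17.5 TPM (limma adjusted p = 0.330 against DECN). No gene was called in the lists of glycolysis (median 0.07, 1 higher and 2 lower at an unadjusted p under 0.05), of amino acid uptake and one-carbon metabolism (0.11, 2 higher and 1 lower) or of mTORC1 components and brakes (-0.12, none higher and 5 lower). Ddit4, a brake on mTORC1, was at 18.4 ± 4.23 TPM in DECN and 7.21 ± 2.48 in rapamycin-treated DECP, without overlap and with a limma adjusted p of 0.0807.

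Lists of signals that follow T cell help held from 0 to 2 called genes each, where 1.31% of all genes were called. Of 31 CD40 and NF-kB targets none passed, with 4 higher and 2 lower at an unadjusted p under 0.05 and a median of 0.06. Of 22 cytokine and STAT targets 1 (4.55%) rose, Pim1, 17 were higher in any amount, and the median was 0.34 beside -0.05 for untreated DECP. Of 22 immediate early and MAPK feedback genes 2 (9.09%) rose, Myc and Dusp4, none fell, and the median was -0.13. Batf, an AP-1 factor induced in light zone cells, was at 72.1, 78.1, 51.2 and 52.9 TPM in DECN and at 137, 160.2, 75.3 and 117 TPM in treated DECP. Treated replicate 3 lay below DECN replicate 2, and the log2 difference of 0.90 had a limma adjusted p of 0.0860. Ccnd2, a D cyclin, was at 8.63 ± 7.69 and 21.2 ± 6.71 TPM (log2 difference 1.43, limma adjusted p = 0.158), and Irf4 at 2.48 ± 0.789 and 2.70 ± 1.78 TPM (limma adjusted p = 0.995). Nfkbia, the inhibitor of NF-kB, was at 177 ± 19.0 and 259 ± 30.1 TPM without overlap (limma adjusted p = 0.0682). Of 41 genes of G1/S and DNA replication none was called, 27 were higher in any amount, 8 were higher and 1 lower at an unadjusted p under 0.05, and the median was 0.09. The nearest to the threshold was Cdk6, a kinase that drives entry into S phase, at 33.4 ± 8.51 TPM in DECN, 62.9 ± 15.1 in treated and 66.2 ± 6.68 in untreated DECP (limma adjusted p = 0.0504 against DECN). No gene was called in the lists of the unfolded protein response (median -0.02, 3 higher and 2 lower at an unadjusted p under 0.05), FOXO targets (-0.25, 1 and 2), costimulatory ligands (-0.37, 1 and 2), plasma cell genes (-0.01, 3 and 2) or naive and memory B cell genes (-0.20, none and 3). In the interferon list Oasl1 alone of 25 genes was called, with a median of 0.26. Of 20 light zone genes Myc rose, and of 19 dark zone genes Cxcr4 rose and 1 fell.

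**Figure D4:**
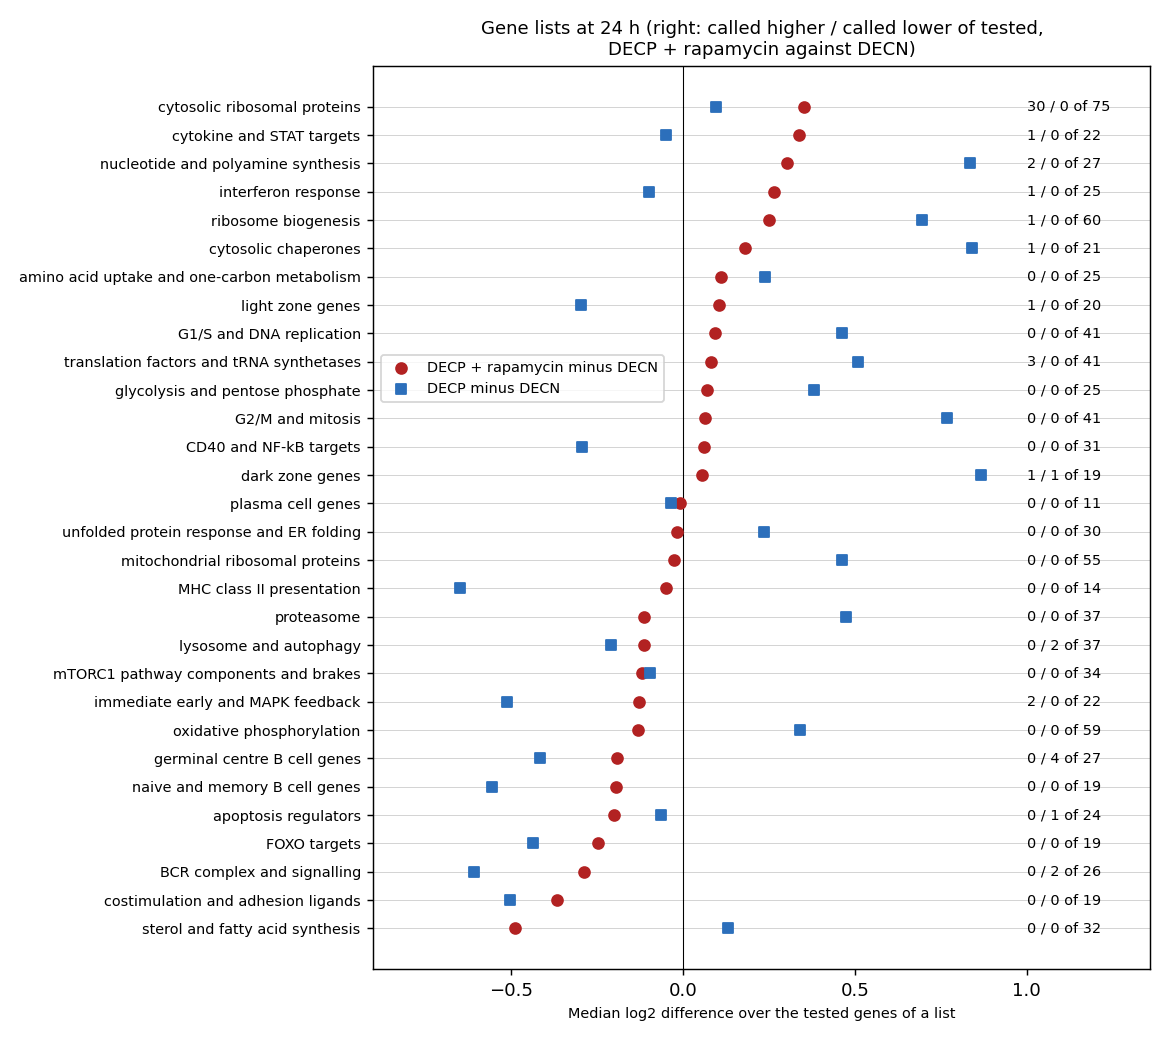
Median log2 difference over the tested genes of each list, for rapamycin-treated DECP minus DECN (circles) and untreated DECP minus DECN (squares), with the number called higher and lower in the former on the right. Ribosomal proteins have 30 calls of 75; nucleotide synthesis, chaperones, mitosis and oxidative phosphorylation have medians from -0.13 to 0.30 in treated and from 0.34 to 0.84 in untreated DECP.

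The differences at 24 h with rapamycin were read against those at 12 h without it, which come from other libraries. At 12 h, 3 libraries of DECP and 3 of DECN gave 388 called genes of 13429 tested (2.89%), of which 247 were higher and 141 lower in DECP. Of the 247, 243 were tested at 24 h, and 29 of them (11.9%) rose in rapamycin-treated DECP against DECN, beside 0.774% of all genes. They made up 29.3% of the 99 genes called higher. None was called lower, 207 (85.2%) were higher in any amount beside 52.0% of all genes, and the median log2 difference was 0.31. Of the 29, 19 were ribosomal protein genes. Among the 204 genes of the 12 h list that are not on the ribosomal protein list, 10 (4.90%) rose, 82.4% were higher in any amount, and the median was 0.30. Those 10 included Eef1a1, Eef1b2, Hnrnpa1, Eef1g and Npm1, and also Gatm, the first enzyme of creatine synthesis (log2 difference 0.99, limma adjusted p = 0.0418), Cfp, the complement factor properdin (1.34, limma adjusted p = 0.0479), and Timd2, a receptor of ferritin (1.54, limma adjusted p = 0.0482). Timd2 overlapped between the groups. The 12 h differences of Npm1, Gatm, Cfp and Timd2 were 1.98, 1.28, 1.81 and 1.75.

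Of the 141 genes lower at 12 h, 126 were tested at 24 h, and 92 (73.0%) were lower in any amount beside 48.0% of all genes, with a median of -0.23. By limma none was called, and at an unadjusted p under 0.05, 30 were lower (23.8% beside 6.42% of all genes) and 2 higher. At the 0.532% of all genes called lower, a list of this size would hold fewer than 1 call, so the count of 0 is not below the background. The nearest to the threshold were Rgs18, a regulator of G protein signalling (-2.24, limma adjusted p = 0.0580), Tnfaip8 (-0.57, limma adjusted p = 0.0821) and Yod1, a deubiquitinase (-0.96, limma adjusted p = 0.0998). Their 12 h differences were -2.54, -0.93 and -2.97.

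**Figure D5:**
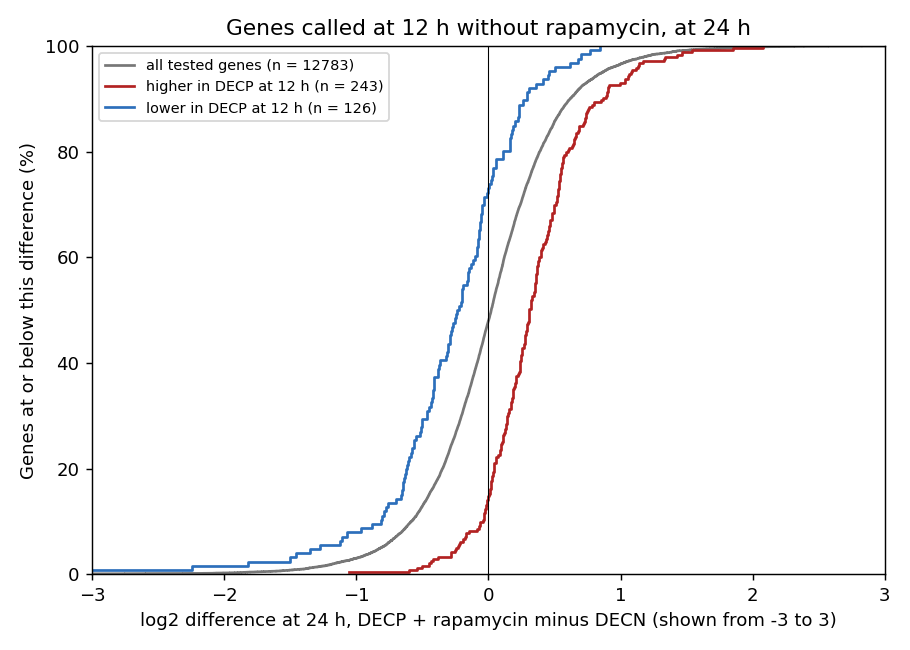
Cumulative share of genes, in percent, at or below each log2 difference at 24 h (rapamycin-treated DECP minus DECN), for all 12783 tested genes, the 243 tested genes higher in DECP at 12 h and the 126 lower at 12 h. At a difference of 0 the curve of the genes higher at 12 h stands at 14.8% and that of the genes lower at 12 h at 73.0%.

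Promoter windows of the called genes were searched for an E-box bound by MYC with MAX (CACGTG) and for the cell cycle genes homology region (TTTGAA or TTCGAA), on both strands, as a description with no test. A window was found for 62 of the 99 genes called higher and 49 of the 68 called lower. The E-box was in 10 of the 62 (16.1%), in 3 of the 49 (6.12%), and in 8.09% of all genes with a window. The homology region was in 10 of the 62 (16.1%), in 10 of the 49 (20.4%) and in 21.7% of all. Rpl14, Rpl23, Rpl34, Pim1, Tyms and Dtymk were among the 10 higher genes with an E-box. Among the largest rises and falls, Mgll and Igf2bp3 held the E-box, and Lmo7, Uck2, Igf2bp3 and Cyp4f18 the homology region. Windows of a gene that fell and a gene that rose are shown with the motif in capitals: Mgll at chr6:88724162-88724461 on the plus strand with an E-box, and Uck2 at chr1:167285078-167285377 on the minus strand with the homology region.
Mgll: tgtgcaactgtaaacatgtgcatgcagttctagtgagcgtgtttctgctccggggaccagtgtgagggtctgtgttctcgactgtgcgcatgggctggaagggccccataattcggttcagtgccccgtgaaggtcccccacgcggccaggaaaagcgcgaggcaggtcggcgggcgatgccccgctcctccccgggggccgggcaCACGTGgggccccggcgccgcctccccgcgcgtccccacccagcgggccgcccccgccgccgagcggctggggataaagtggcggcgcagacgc
Uck2: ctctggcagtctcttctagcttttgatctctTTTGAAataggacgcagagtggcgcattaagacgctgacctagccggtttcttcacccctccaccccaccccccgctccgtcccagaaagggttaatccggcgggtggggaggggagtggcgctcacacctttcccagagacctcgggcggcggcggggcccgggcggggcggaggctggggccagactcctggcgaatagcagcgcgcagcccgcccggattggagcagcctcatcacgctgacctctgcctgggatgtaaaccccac

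The donors differ at Ly75 and at the CD45 locus, so the neighbourhood of each was looked at. Within 5 Mb of Ly75 (chr2:60292103-60383303, minus strand) none of 26 tested genes was called. Within 5 Mb of Ptprc, which encodes CD45 (chr1:138062861-138175708, minus strand), 1 of 48 was called, Pik3c2b. At 1.31% of all genes, fewer than 1 call would fall in each window, so these counts say nothing of differences linked to either locus. The authors' deposited table of the same comparison gave 527 genes with an adjusted p under 0.05 of 12034 with a value, 222 higher and 305 lower in rapamycin-treated DECP. Of the 167 genes called here, 146 (87.4%) were called in the authors' deposited table in the same direction, which is 27.7% of its calls. The authors' deposited table gave Crip1 a log2 fold change of -1.50, Slc19a1 1.72, Rps18 0.63 and Myc 1.34, with adjusted p of 6.17e-16, 0.000355, 0.000239 and 0.00133. In the authors' deposited table Ddit4 passed with a log2 fold change of -1.17 and an adjusted p of 0.00157, and Srm did not, at 0.68 and 0.157.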

How the data were processed

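Sorted light zone cells were lysed, RNA was turned into cDNA, and Nextera XT was used for the libraries, per the labels' protocols; that kit does not mark strand. Per gene values came from kallisto 0.43.0 with GRCm38, per the submitters' processing notes; reads shared by near-identical copies are divided by an estimate. The authors deposited, per the file headers, a score per gene and library that equals TPM with 1 added, from which 1 was taken off. Tests stayed within the 12 h or the 24 h table. Tables of comparisons, which the authors deposited too, hold a mean normalized signal per group, a log2 fold change and a p-value with its adjusted value; no tool is named for them. Other deposited tables were not used. TPM values hold no read depth, so none is given.

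Groups came from the sample labels. limma 3.58.1 (R 4.3.3) with an intensity trend was fitted to log2(TPM + 1) of all 12 libraries at 24 h, which share 1 estimate of spread, over genes with at least 1 TPM in at least 4 libraries (3 at 12 h). Tests were two-sided with a Benjamini-Hochberg adjusted threshold of 0.05, and verbs of change refer to genes past it. Ly75 was tested with an exact permutation test. The members and the 36 gene lists were chosen with earlier results of these data known. Genes named are 21 fixed ones, the 10 largest rises and falls among called genes without overlap and with a mean of at least 5 TPM, up to 4 called members of each list by smallest p (2 where none was called), the 6 called genes of at least 20 TPM with the smallest p, and up to 5 of each 12 h list. Any other gene was picked out after its values were seen, and a few genes are not reported here. Identifiers were looked up in GENCODE M21 (30202 of 30452 found), and plots used matplotlib 3.10.9. The procedure was tested on simulated data. Alternatives covered the pseudocount, filter, scaling, weights, trend, block and index terms, and each library left out.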

Additional observations from a re-analysis of the deposited data

Results flagged for a closer look

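Among the named genes, 210 groups of 4 libraries were checked for a library far from the other 3, and 16 were picked out by a gap that chance passes in about 1 of 20 groups. In rapamycin-treated DECP, replicate 2 was low for Rps18 (5797 TPM, others from 6314), Rpl34 (3719 TPM, others from 4045) and Id3 (57.5 TPM, others from 70.9), and high for Cr2 (76.9 TPM, others up to 38.2). Replicate 1 was high for Cdk6 (85.5 TPM, others up to 56.4) and C130026I21Rik (445 TPM, others up to 322). Replicate 3 was low for Erdr1 (832 TPM, others from 1068), and it alone had Tyrobp above 0 (2.21 TPM). In DECN, replicate 1 was low for Cd3d (12.7 TPM, others from 16.8). Replicate 2 was low for Ndufs8 (193 TPM, others from 279). Replicate 3 was low for Ska1 (0.842 TPM, others from 5.15) and H2-DMb2 (419 TPM, others from 488). Replicate 4 was high for Sntg2 (0.892 TPM, others up to 0.327), H2-Ab1 (8577 TPM, others up to 8015), Dok3 (82.9 TPM, others up to 69.95) and Tnfaip8 (773 TPM, others up to 564). What sets these libraries apart was not tested.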

How the results depend on the processing

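All 167 genes called in rapamycin-treated DECP against DECN kept their direction under each alternative in which they were measured. Where groups do not overlap, leaving out or splitting libraries cannot turn a direction, so this lends the calls no support. The number called, and with it the threshold's side for single genes, depended on the processing, and the cause was not tested. The number called was 52 (27 higher, 25 lower) with no filter on low values, where more genes enter the adjustment. It was 103 (49 higher) with quantile scaling, 106 (41 higher) with median centring, 22 (12 and 10) without the intensity trend, and 7 (3 and 4) when a 1.2-fold change was required. The number lower was 35 when ribosomal protein genes were left out of the scaling and 44 with only the 8 libraries. Without DECN replicates 1 and 2 together, an alternative chosen after seeing the data, it was 30 (23 and 7). Leaving out 1 library gave 23 to 173 genes, 13 to 102 higher and 10 to 71 lower. Within second index T 0 genes were called, 0 higher and 0 lower, and within second index A 1, 0 higher and 1 lower. With the replicate block 41 genes were called (16 higher, 25 lower); same-numbered libraries of both groups correlated at -0.02, -0.05, -0.04 and 0.02, and only replicate 4 correlated best with its own number, so the numbers do not pair the libraries.

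The number of genes higher at 12 h that were called here, 29 in all, was 9 with no filter, 10 with quantile scaling, 10 with median centring, 14 without ribosomal protein genes in the scaling, 6 with the replicate block, 5 without DECN replicates 1 and 2, and 0 without the trend, with the 1.2-fold requirement and within either index; it was 4 to 32 with 1 library left out. The median of the genes higher at 12 h was 0.39 without ribosomal protein genes in the scaling and 0.286 to 0.352 with 1 library left out, and that of the genes lower at 12 h was -0.345 to -0.193. The log2 difference of Ly75 was 0.960 to 1.32 with 1 library left out, and it passed no longer without DECN replicate 4.

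Directions that turned belonged to genes that were not called. Irf4 became 0.0202 with a pseudocount of 5, 0.0532 without ribosomal protein genes in the scaling and 0.31 within second index T, and with 1 library left out it ranged from -0.282 to 0.223. Within second index A, Cd83 became -0.0075, Foxo1 0.018 and Bcl6 0.20. Within second index T, Cd86 became 0.23, Prf1 -0.53 and Klrb1c -0.079, and with 1 library left out Klrb1c ranged from -0.239 to 0.261. H2-Ab1 became 0.14 with quantile scaling. TPM keeps no read depth, so low genes carry no interval for counting error.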
